A study of Rattus norvegicus with 84 samples.

Results

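MicroRNAs (miRNAs) of brain-derived extracellular vesicles (EVs) were compared between 3 rats killed 4 days poststroke and 3 healthy rats. The comparison used all known rat miRNAs in the table of UMI counts, a UMI being a random tag joined to a molecule ahead of PCR, so that copies are counted once. Known miRNAs were 699 of its 5489 features, the others being predicted. Of these, 604 had a UMI in the 6 libraries and 350 passed the filter on low counts. The 6 libraries belong to 84 libraries of the series and to its 21 small RNA libraries of brain-derived EVs. All rats were wild type. The stroke rats were adult male Sprague-Dawley rats aged 8 to 12 weeks, whose right middle cerebral artery was occluded for 90 min and reperfused, and the 3 used here form the control group, which received saline through the re-exposed carotid artery 3 days poststroke and no cells. Their EVs came from the ipsilateral hemisphere, frozen after collection. The healthy rats are labelled as such, with no age, and no sham surgery is described for them, so the occlusion, anesthesia, carotid surgery, and saline cannot be told apart in this comparison. The vesicles were isolated from a piece of the hemisphere, whose position relative to the lesion is not stated in the sources used here, and in such bulk tissue fewer vesicles of a cell type and less miRNA per vesicle cannot be told apart.

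A miRNA is cut as a duplex from a hairpin precursor, and the 5p or 3p arm of the duplex guides silencing proteins to messenger RNAs through its seed, bases 2 to 8 of the mature strand. miRNAs with the same seed can bind the same target sites, and several families are tied to a cell type or lineage. miR-142 is tied to blood cell lineages, miR-223 to myeloid cells, miR-219a and miR-338 to oligodendrocytes, and miR-124, miR-128 and miR-132 to neurons. In the injured brain, resident microglia and invading leukocytes turn on miR-155 and miR-21, whereas the let-7 family is abundant in mature neural tissue.

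The mature sequences below are those of miRNAs described in detail, chosen for large increases and for the families and the imprinted cluster among the decreases, and were the same in the deposited table and in RefSeq (build GRCr8) for all 326 of the 350 tested miRNAs that RefSeq lists. They are written 5′ to 3′ with the seed in capitals. The first set was higher 4 days poststroke.
miR-223-3p: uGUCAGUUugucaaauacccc
miR-155-5p: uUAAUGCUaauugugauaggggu
miR-21-5p: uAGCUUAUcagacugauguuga
miR-142-3p: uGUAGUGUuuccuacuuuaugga
miR-142-5p: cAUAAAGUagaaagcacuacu
miR-20a-5p: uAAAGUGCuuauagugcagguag
miR-219a-5p: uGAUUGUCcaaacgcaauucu
miR-34a-5p: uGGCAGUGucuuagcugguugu

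In GRCr8, miR-223-3p lies at chrX:65151450-65151470 (+), miR-155-5p at chr11:37261117-37261139 (+), miR-21-5p at chr10:71902653-71902674 (-), and both arms of miR-142 at chr10:73055119-73055177 (+). The second set was lower. It holds 3 members of the imprinted Dlk1-Dio3 cluster, which lie close together on chromosome 6 (+), miR-382-5p at chr6:134569956-134569977, miR-541-5p at chr6:134578434-134578458, and miR-369-5p at chr6:134579472-134579493. It also holds 3 let-7 strands with 1 seed and miR-204-5p at chr1:229743493-229743514 (+).
miR-369-5p: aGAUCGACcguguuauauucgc
miR-382-5p: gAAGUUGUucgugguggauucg
miR-541-5p: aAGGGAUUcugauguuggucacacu
let-7a-5p: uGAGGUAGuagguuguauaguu
let-7f-5p: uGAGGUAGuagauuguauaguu
let-7i-5p: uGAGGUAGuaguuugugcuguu
miR-204-5p: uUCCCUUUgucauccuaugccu

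The 6 libraries held 295844 to 835746 UMIs on known miRNAs and detected 440 to 507 of them. Known miRNAs took 86.1% to 88.1% of all UMIs in the healthy libraries and 93.8% to 95.1% in the control libraries, so the remainder on predicted miRNAs was larger in the healthy rats without overlap. The 10 most abundant miRNAs took 56.9% to 57.2% of known UMIs in control and 61.4% to 65.5% in healthy libraries. Among the healthy libraries, rat 2 stood apart, with a Pearson r of 0.953 and 0.956 with the other two over log2 values of the 350 miRNAs, against 0.980 between those. Defining brain miRNAs were present in all libraries, where the neuron-enriched list took 13.6% to 17.5% of known UMIs, and miR-9a-5p and miR-128-3p were among the 10 most abundant miRNAs. Red cell miR-451-5p had 2 to 37 UMIs in the control and 4 to 29 in the healthy libraries, and liver miR-122-5p had 7 to 29 and 1 to 64.

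At 4 days poststroke, 27 miRNAs rose and 24 fell, 51 or 14.6% in all, at a Benjamini-Hochberg adjusted p under 0.05 in edgeR's quasi-likelihood test and over 1.5-fold, the increases and decreases being 7.71% and 6.86% of the 350 tested. Normalised counts are given as CPM, UMI counts scaled to a common library size by the trimmed mean of M values (TMM). In 138 of the 350, or 39.4%, the 3 control and 3 healthy values did not overlap. The numbers of calls depended on scaling and on single libraries. Scaling by library totals alone raised the median log2 fold change of all miRNAs from −0.02 to 0.20 and gave 59 higher and 9 lower, DESeq2 size factors gave 27 and 39, and limma on log2(TPM + 1) gave 80 and 6. With predicted miRNAs kept in the table the median was 0.91, and 101 known miRNAs were higher and 1 lower. Without healthy rat 1, healthy rat 2, or control rat 1, the calls were 11 and 15, 11 and 14, and 15 and 5. Without control rats 2 or 3, 18 and 20 were higher and 7 and 13 lower. Of the 51 called miRNAs, 8 higher and 3 lower ones were called with each library left out in turn: miR-142-3p, miR-155-5p, miR-19a-3p, miR-19b-3p, miR-21-5p, miR-219a-5p, miR-223-3p, miR-34a-5p, miR-369-5p, miR-382-5p, and miR-708-5p.

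**Figure D1:**
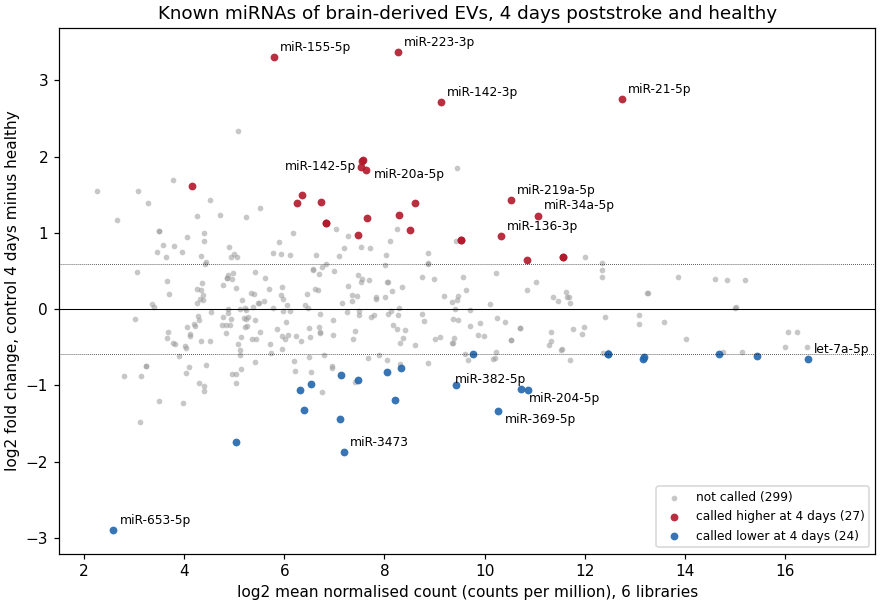
Log2 fold change (control 4 days minus healthy, vertical axis) against the log2 mean normalised count (CPM) (horizontal axis) of the 350 tested known miRNAs, 1 point each, with called ones in red (higher, 27) and blue (lower, 24) and dotted lines at 1.5-fold. The calls with the largest positive values span low to high levels, from miR-155-5p to miR-21-5p, whereas the abundant let-7a-5p sits just below the dotted line.

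Among the largest called increases were miRNAs known from myeloid and other blood cells and from the inflammatory response. The cells that released the vesicles were not measured. miR-223-3p, which neutrophils and monocytes carry, was at 789, 567 and 332 CPM in the 3 control rats and at 34.1, 70.0 and 53.7 in the healthy rats. The groups lay far apart, with a log2 fold change of 3.37 ± 0.59 (SE, n = 3 and 3, adjusted p = 0.00138). miR-21-5p, an inducible miRNA of microglia, astrocytes, and macrophages, was at 14131, 11893 and 9579.7 in control and at 1681, 2203 and 1406 in healthy rats (log2 fold change 2.75 ± 0.49, adjusted p = 0.00138). The lowest control value was far above the highest healthy value.

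miR-142, transcribed in blood cell lineages, rose on both arms. Its 3p arm was at 1149, 875 and 884 CPM in control and at 126, 193 and 119 in healthy rats (log2 fold change 2.72 ± 0.49, adjusted p = 0.00138). The 5p arm was at 256, 291 and 326, against 51.2, 77.6 and 107 (1.86 ± 0.46, adjusted p = 0.0111), and lost its call without healthy rat 1 or healthy rat 2. Neither arm overlapped between groups. miR-155-5p, induced when macrophages and microglia are activated, had 88, 88 and 53 UMIs in control and 1, 9 and 3 in healthy libraries, so that its log2 fold change of 3.30 ± 0.79 (adjusted p = 0.0107) rests on few healthy molecules. The plot of values by library sets these beside the other large changes.

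**Figure D2:**
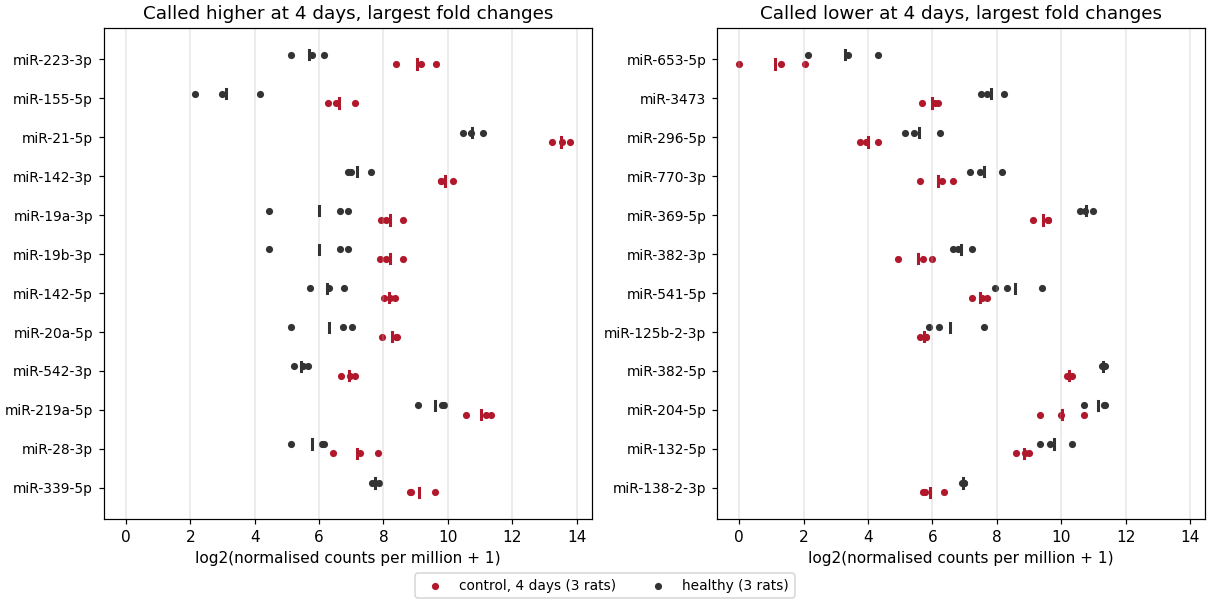
Normalised counts, as log2(CPM + 1), in the 3 control rats at 4 days (red) and the 3 healthy rats (black) for the 12 called miRNAs with the largest positive (left) and largest negative (right) log2 fold changes whose groups do not overlap. Short bars are group means. In miR-223-3p, miR-155-5p, miR-21-5p and miR-142-3p the gap between the groups is widest, and miR-19a-3p and miR-19b-3p carry nearly the same counts.

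Not every leukocyte or inflammatory miRNA followed. Of the 10 myeloid and leukocyte miRNAs known, 5 were tested and 3 rose, against 7.71% of all 350. The 3 include both arms of miR-142. This and the other lists were made with earlier results of these data known, so the share over all 350 is no test of them. The median log2 fold change was 1.86 against −0.02 over all 350. As a share, the list took 0.76% to 0.93% of known UMIs in control and 0.61% to 0.63% in healthy rats. The other two tested were the lymphocyte-rich miR-150-5p, at 3033 to 4049 CPM in control and 3157 to 3400 in healthy rats (log2 fold change 0.07 ± 0.17), and miR-342-3p, at 2041 to 2310 and 2590 to 3471 (−0.42 ± 0.18, adjusted p = 0.107). Of 12 inflammation-induced miRNAs, 7 were tested and only miR-21-5p and miR-155-5p rose, against the same 7.71% of all 350, with a list median of −0.18. miR-146a-5p, a feedback brake on Toll-like receptor signaling, was at 951, 883 and 854 in control and at 515, 441 and 493 in healthy rats. Its groups did not overlap, yet its log2 fold change of 0.89 ± 0.57 missed the threshold (adjusted p = 0.285 by edgeR). The model shares its spread with the other groups, among them 10-day control rats at 881, 6934 and 4274. Their part in the missed threshold was not tested.

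Oligodendrocyte miR-219a rose on its 5p arm alone. miR-219a-5p, which promotes myelinating differentiation, was at 2607, 1521 and 2314 CPM in control and at 910.5, 537 and 946 in healthy rats (log2 fold change 1.43 ± 0.30, adjusted p = 0.00511), without overlap. The opposite arm of the same locus on chromosome 3, miR-219a-2-3p, went the other way, from 3147, 4147 and 3330.2 in healthy to 2769, 2179 and 2455 in control rats (−0.52 ± 0.16, adjusted p = 0.0286), below 1.5-fold. Within each library, and so whatever the scaling, there were 0.941, 0.698 and 0.943 UMIs of the 5p arm per UMI of the 3p arm in control and 0.289, 0.130 and 0.284 in healthy rats. Part of miR-219a-5p can come from a second locus with another 3p arm. miR-338-3p, the other oligodendrocyte miRNA measured at high level, was at 4369 to 5644 in control and 2226 to 3968 in healthy rats (0.68 ± 0.24, adjusted p = 0.0536).

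Arms of 1 hairpin parted elsewhere too. Of 102 tested pairs of arms, 26 had a called arm. Both arms had fold changes of the same sign in 16 of those 26 and in 59 of all 102, a similar share. In 2 pairs both arms were called, miR-142 and miR-382, each in 1 direction, and in 0 pairs were the arms called in opposite directions. The ratio of 5p to 3p was lower poststroke in 59 pairs and higher in 43, without overlap of the groups in 16 and 8. Not all pairs are separate measurements, since miR-129-1-3p and miR-129-2-3p share their counts, as do miR-30a-3p and miR-30e-3p. A 5p strand made at several loci was paired with the 3p strand of each, as in miR-138 and miR-181a. miR-132, an activity-regulated neuronal miRNA, had 0.181, 0.198 and 0.209 UMIs of 5p per UMI of 3p in control against 0.352, 0.828 and 0.400 in healthy rats. Its 5p arm fell by 1.00 ± 0.30 on the log2 scale (adjusted p = 0.0284), a call lost without healthy rat 2 or any 1 control rat, whereas the more abundant 3p arm had 0.36 ± 0.24 (adjusted p = 0.314). miR-369 had 2.54, 3.10 and 2.20 against 6.47, 9.89 and 5.81. Among the calls, 3p strands were 19 of 27 higher and 8 of 24 lower ones, against 170 of all 350, and the median GC content was 39.1% in the higher calls and 47.8% in the lower calls and in all tested. GC content and arm moved with the calls in this way, and their part in the result was not tested.

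**Figure D3:**
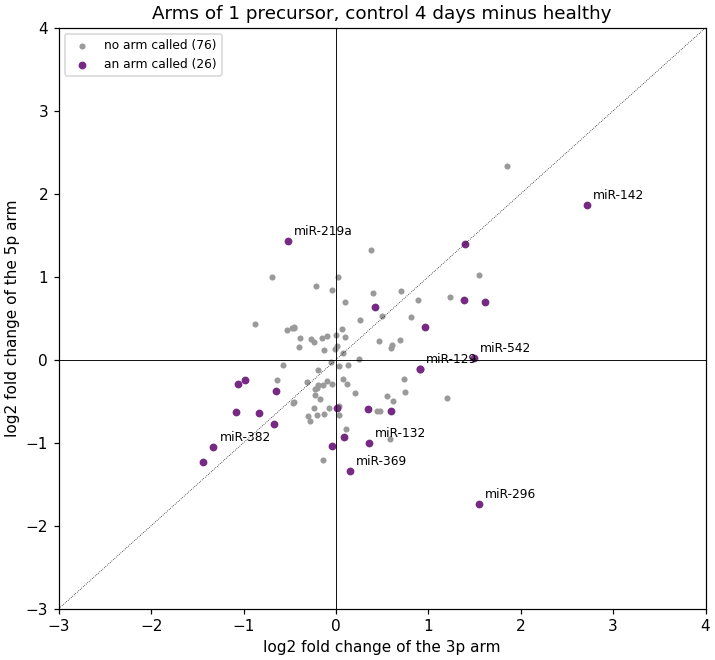
Log2 fold change of the 5p arm (vertical axis) against that of the 3p arm (horizontal axis), control 4 days minus healthy, for the 102 pairs of arms tested, with the 26 pairs that have a called arm in purple and a dotted line where both arms change equally. miR-142 (1.86 and 2.72) lies at upper right and miR-382 (−1.05 and −1.33) at lower left, whereas in miR-219a (1.43 and −0.52), miR-132 and miR-369 the arms have opposite signs.

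Members of the growth-associated miR-17-92 cluster, which is transcribed in dividing cells, were among the increases. miR-20a-5p was at 335, 245 and 345 CPM in control and at 130, 34.1 and 105 in healthy rats (log2 fold change 1.82 ± 0.44, adjusted p = 0.0107). It lost its call without healthy rat 2, the lowest of the 3. miR-19a-3p was at 388, 241 and 270 against 119, 20.8 and 100 (1.95 ± 0.47, adjusted p = 0.0107), and miR-19b-3p had nearly identical counts.
miR-19a-3p: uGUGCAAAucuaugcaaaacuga
miR-19b-3p: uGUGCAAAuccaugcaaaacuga

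Their sequences are near-identical, and their counts differed by 0.306% over the 21 brain libraries, so they are not independent measurements. The same held for 18 pairs in all, under 2% apart, which leaves 332 measurements among the 350 at that cut. Further rows above the cut also nearly match, so not all 332 are separate. let-7c-2-3p had 14, 27 and 21 UMIs in control libraries and let-7f-2-3p 14, 27 and 20, with 2, 8 and 12 in healthy libraries for both. With 1 miRNA kept for each shared count, 23 were higher and 23 lower. Of 27 known strands of the miR-17-92 cluster and its paralogs, 13 were tested, 3 rose and 0 fell, with a median of 0.37, against 27 higher (7.71%), 24 lower (6.86%) and a median of −0.02 among all 350, and 2 of the 3 share their counts. By seed, miR-17-5p and miR-93-5p share AAAGUGC with miR-20a-5p, and had 0.75 ± 0.66 and 0.48 ± 0.23 (adjusted p = 0.441 and 0.148). miR-301a-3p and miR-301b-3p, also with shared counts, rose (1.13 ± 0.29, adjusted p = 0.0112) but not without healthy rat 2, and miR-130a-3p with the same seed had 0.96 ± 0.36 (adjusted p = 0.0662).

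The seed of miR-34a-5p recurred in 4 tested strands, all with positive fold changes, against 169 of all 350. Of the 4, 1 was called. miR-34a-5p, a direct target of p53, was at 2878, 3120 and 2944 CPM in control and at 1483, 615 and 1731 in healthy rats. The groups did not overlap, and the log2 fold change was 1.23 ± 0.30 (adjusted p = 0.0107), or 0.89 without healthy rat 2. miR-34b-5p, miR-34c-5p and miR-449a-5p of ciliated cells had 1.00 ± 0.40, 0.89 ± 0.32 and 1.69 ± 0.72, with adjusted p of 0.0868, 0.0562 and 0.106.

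Of the vascular and muscle lists, 1 of 2 endothelial, 0 of 8 mural, and 2 of 6 striated muscle strands rose by edgeR, against 7.71% of all 350. miR-126a-5p of endothelial cells was at 2441, 1993 and 2330 CPM in control and at 1548, 1154 and 1642 in healthy rats (0.64 ± 0.19, adjusted p = 0.0293), a call lost without control rats 1 or 3 or healthy rats 1 or 2, and the guide arm miR-126a-3p had 0.43 ± 0.19 (adjusted p = 0.118). The 8 tested strands of mural cells and fibroblasts had positive fold changes under each scaling, with a median of 0.55. By edgeR with TMM, 169 of all 350 were above 0. The 8 hold 7 separate counts, since miR-10a-5p and miR-10b-5p share theirs. These strands did not pass the test, with 2 at an unadjusted p under 0.05 and 2 called with library totals, and without healthy rat 2 miR-145-5p had −0.08. Nearest to the threshold was miR-199a-3p, at 1392, 1131 and 748 against 293, 343 and 271, without overlap (1.85 ± 0.65, adjusted p = 0.0529). Of 6 striated muscle miRNAs tested, miR-133a-3p and miR-133b-3p rose (1.04 ± 0.30 and 0.98 ± 0.32, adjusted p = 0.022 and 0.0432), but leaving out any 1 library ended both calls, except that miR-133a-3p was still called without control rat 3. miR-1-3p, which muscle expresses together with miR-133, was at 267 to 324 in control and 218 to 252 in healthy rats (0.35 ± 0.27, adjusted p = 0.378), and miR-206-3p had −0.75 ± 0.32 (adjusted p = 0.104).

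The remaining increases included miR-542-3p, at 137, 102 and 125 CPM in control and at 44.3, 36.0 and 49.0 in healthy rats (1.49 ± 0.42, adjusted p = 0.022). miR-152-3p, miR-339-5p, miR-28-3p and miR-532-3p rose by 1.23 to 1.40 on the log2 scale without overlap of the groups, but each lost its call when any 1 library was left out, except miR-28-3p without control rat 3. miR-542-3p lost it without control rats 1 or 3 or healthy rats 1 or 2. miR-15b-3p, from the precursor of the cell cycle regulator miR-15b-5p, was the single call with overlapping groups and was lost without control rats 1 or 2 or healthy rats 1 or 2, at 35.9, 34.0 and 11.5 against 6.82, 7.57 and 11.7.

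**Figure D4:**
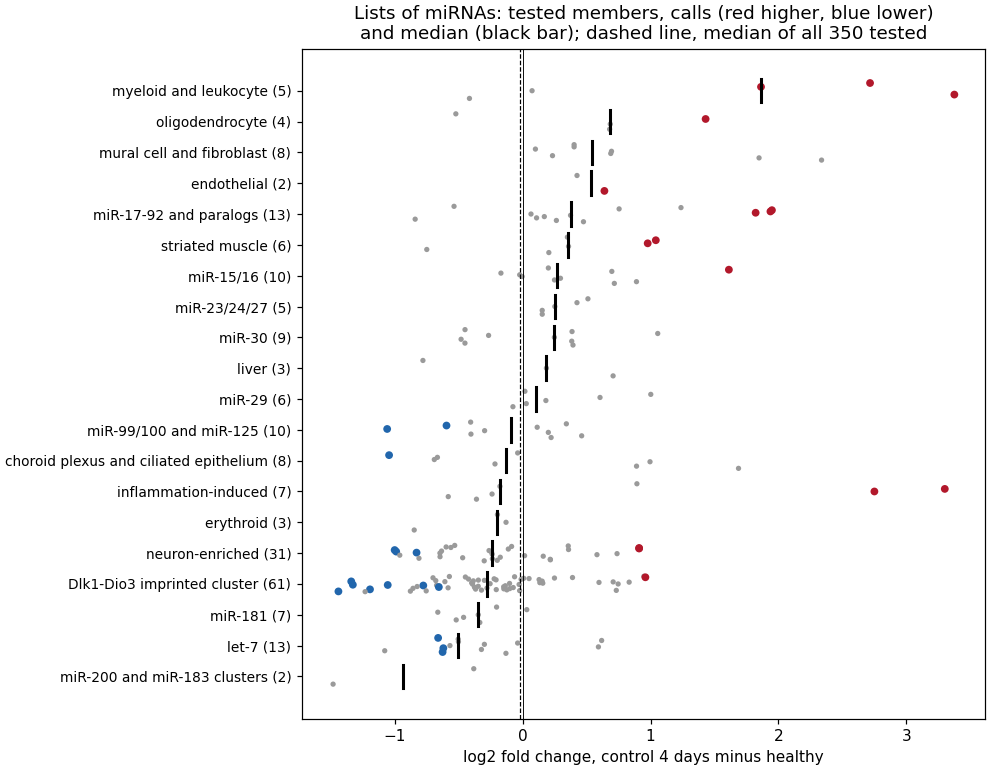
Log2 fold change (control 4 days minus healthy) of each tested miRNA in 20 lists with at least 2 tested members, called ones in red (higher) and blue (lower), others in gray, with the list median as a black bar and the median of all 350 as a dashed line. Numbers in brackets are tested members. The myeloid list has the highest median, 1.86, and the let-7 list one of the lowest, −0.50, whereas most lists sit within 0.5 of the overall median.

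The imprinted Dlk1-Dio3 cluster held 7 of the 24 decreases and 61 of the 350 tested miRNAs. This cluster on chromosome 6 is transcribed from the maternal chromosome in neurons as a long run of hairpins, and 58 of its 61 tested strands lie between chr6:134298094 and chr6:134579527 on the plus strand. miR-369-5p had the lowest adjusted p of all 350. It was at 553, 765 and 764 CPM in control and at 1698, 2040 and 1532 in healthy rats (log2 fold change −1.34 ± 0.20, adjusted p = 0.000546). miR-382-5p was at 1151, 1301 and 1203 against 2452, 2642 and 2497 (−1.05 ± 0.21, adjusted p = 0.00323). In both, the groups were tight and the highest control rat was far below the lowest healthy rat.

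miR-382-3p, miR-541-5p, miR-770-3p, miR-409a-5p and miR-434-3p were the other decreases of the cluster, between −0.65 and −1.44. Of these, miR-770-3p lost its call without control rat 1, miR-409a-5p without control rat 1 or healthy rat 1, miR-382-3p and miR-541-5p without control rats 1 or 2 or healthy rat 2, and miR-434-3p without any 1 library except healthy rat 3. Of its 88 known strands 61 were tested, 7 fell and 1 rose, and 46 had a fold change below 0, against 24 lower (6.86%), 27 higher (7.71%) and 181 below 0 among all 350. The list median was −0.28 against −0.02 over all, it was −0.05 against 0.20 with library totals and 0.05 against 0.35 with limma on TPM, so its sign turned in limma while it stayed below the overall median. The cluster took 2.64% to 3.13% of known UMIs in control and 3.32% to 3.69% in healthy rats. The exception was miR-136-3p, which rose from 801, 782 and 1025 to 1542, 1618 and 1915 CPM (0.96 ± 0.27, adjusted p = 0.0222), though not without control rat 3, healthy rat 1, or healthy rat 2. It is cut from the antisense strand of Rtl1 in the same cluster, at chr6:134331383-134331404.

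In the let-7 family, which holds back growth programs in mature tissue, 2 of 13 tested strands had fold changes above 0, against 169 of all 350. These 2, let-7c-2-3p (0.62) and let-7f-2-3p (0.59), had nearly the same low counts. Of the 13, 3 fell and 0 rose, against 6.86% lower and 7.71% higher among all 350. With library totals, the let-7 calls were lost. let-7a-5p was at 73049.5, 63486 and 71954 CPM in control and at 102387, 133321 and 93817 in healthy rats (−0.66 ± 0.15, adjusted p = 0.00827). let-7f-5p and let-7i-5p fell by 0.62 and 0.63 on the log2 scale (adjusted p = 0.00983 and 0.022). The 9 strands with the let-7 seed had negative fold changes, between −0.13 for miR-98-5p and −0.66, though miR-98-5p turned to 0.08 with library totals, miR-98-5p, let-7d-5p and let-7g-5p to 0.24, 0.04 and 0.06 in limma on TPM, and the whole set to positive values with predicted miRNAs kept. By edgeR, let-7c-5p and let-7e-5p had adjusted p of 0.0442 and 0.0107 below 1.5-fold. As a share, the 20 known strands of the family took 27.8% to 31.9% of known UMIs in control and 34.4% to 43.0% in healthy rats. The highest healthy value in let-7a-5p was rat 2, and without it let-7a-5p (−0.50), let-7f-5p and let-7i-5p were not called, nor were they without control rat 1 or 2, nor let-7i-5p without control rat 3. The let-7a-5p value was −0.42 with library totals and turned to 0.28 with predicted miRNAs kept, where the median of known miRNAs was 0.91.

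Other abundant strands fell by small steps. miR-103-3p and miR-107-3p, which share counts and target Dicer, fell by 0.59 on the log2 scale (adjusted p = 0.0181), a call lost without control rats 1 or 2 or healthy rats 1 or 3. miR-125a-5p was at 19365 to 23289 CPM in control and 24725 to 40728 in healthy rats (−0.59 ± 0.20, adjusted p = 0.0442), called without healthy rat 3 but with no other library left out, and its near relative miR-125b-5p had −0.30 ± 0.16 (adjusted p = 0.204). miR-29a-3p and miR-29c-3p, with shared counts, had 0.02 ± 0.19 and 0.03 ± 0.19. miR-30a-5p had 0.39 ± 0.18 (adjusted p = 0.139).

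Neuron-enriched miRNAs did not move as 1 group. Of 36 strands 31 were tested, 3 fell and 2 rose, with a median of −0.24 and 21 of 31 below 0, against a median of −0.02 and 181 of 350 below 0 among all, of which 6.86% fell and 7.71% rose. The share of these strands called was near that background. Under limma on TPM that median was 0.16, against 0.35 over all. miR-138-2-3p fell from 126, 125 and 119 to 51.4, 80.3 and 53.1 CPM (−0.99 ± 0.24, adjusted p = 0.0107), a call lost without control rat 1 or 3, and miR-132-5p and miR-139-3p were the other decreases, the latter not called without control rats 1 or 2 or healthy rats 1 or 2. The 2 increases, miR-129-1-3p and miR-129-2-3p, share all their counts and so are 1 measurement (0.91 ± 0.23, adjusted p = 0.0111), not called without control rat 1 or healthy rat 1. The best-known neuronal strands were not called: miR-124-3p was at 1805, 2805 and 2650 against 4508, 2716 and 3274 (−0.53 ± 0.23, adjusted p = 0.107) with overlapping groups, miR-128-3p had −0.56 ± 0.20 (adjusted p = 0.0536), and miR-9a-5p had −0.30 ± 0.19 (adjusted p = 0.285).

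miR-204-5p, abundant in the choroid plexus and in astrocytes, was at 1662, 1027 and 644 CPM in control and at 2605, 2589 and 1677 in healthy rats. The highest control and the lowest healthy rat nearly met, and the log2 fold change of −1.04 ± 0.34 (adjusted p = 0.043) was lost without control rat 2, control rat 3, healthy rat 1, or healthy rat 2. miR-211-5p, with the same seed, had −0.67 ± 0.32 (adjusted p = 0.141). Of the 8 tested strands of choroid plexus and ciliated epithelium 1 fell and 0 rose, against 6.86% lower and 7.71% higher among all 350. Among rarer strands, miR-3473 fell from 208, 295 and 182 to 67.0, 50.4 and 70.3 (−1.88 ± 0.47, adjusted p = 0.0112), a call lost without control rats 1 or 2 or healthy rat 2. Likewise, miR-708-5p fell from 242, 199 and 257 to 104, 113 and 146 (−0.93 ± 0.20, adjusted p = 0.00537). miR-653-5p was called lower on 2, 0 and 1 UMIs in control against 1, 5 and 8 in healthy libraries, at which depth a fold change cannot be given, and not called without control rats 2 or 3 or healthy rats 2 or 3.

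To place day 4 in the course of recovery, the control rats at 10 and 31 days were compared with those at 4 days, contrasts without a healthy library. Between 10 and 4 days, 0 of 350 miRNAs were called by edgeR and 1 by DESeq2, with 34 at an unadjusted p under 0.05. The 10-day rats were spread widely: miR-21-5p was at 2300, 15421 and 9024 CPM and miR-223-3p at 76.8, 643 and 212, rat 1 being the lowest in both. Without 10-day rat 1, 3 miRNAs were called.

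Between 31 and 4 days, 101 of 350 (28.9%) were called, 56 higher (16%) and 45 lower (12.9%). Against the healthy rats, 39 (11.1%) were higher and 29 (8.29%) lower at 10 days, 68 in all (19.4%), and 44 (12.6%) each way at 31 days, 88 in all (25.1%), with the same healthy libraries as at 4 days. miR-21-5p was at 1781, 2158 and 1336 CPM (31 minus 4 days −2.75 ± 0.49, adjusted p = 0.000242) and miR-223-3p at 109, 77.2 and 89.5 (−2.62 ± 0.55, adjusted p = 0.00088). In contrast, no fall from 4 days was called for miR-155-5p, at 77.5, 89.3 and 35.8 (−0.55 ± 0.60, adjusted p = 0.513). The same held for miR-142-3p, at 582, 1072 and 358 (−0.52 ± 0.44, adjusted p = 0.402). In both of these, and also in miR-223-3p, the 3 values at 31 days lay above the 3 healthy ones. Healthy rats had miR-223-3p at 34.1, 70.0 and 53.7. The 5p arm of miR-142 fell, to 68.9, 86.8 and 47.0 (−2.08 ± 0.46, adjusted p = 0.00131), and the difference between its arms was not tested.

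Several of the decreased miRNAs were higher at 31 than at 4 days. miR-369-5p was at 2014, 1405 and 2059 CPM (1.39 ± 0.20, adjusted p = 9.51e-05) and miR-382-5p at 2398, 2264 and 3145 (1.09 ± 0.21, adjusted p = 0.000339). let-7a-5p reached 149893, 139907 and 128543 (1.00 ± 0.15, adjusted p = 9.51e-05), and miR-204-5p 4245, 4618 and 2686 (1.79 ± 0.34, adjusted p = 0.000385). For miR-132-5p and miR-138-2-3p, the differences from 4 days were 0.09 ± 0.29 (adjusted p = 0.845) and 0.004 ± 0.24 (adjusted p = 0.99). miR-136-3p fell beyond its healthy range, to 394, 376 and 660 (−1.83 ± 0.28, adjusted p = 0.000103). These contrasts share the 4-day control libraries with the comparison to healthy rats, so a deviation of those libraries enters both.

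**Figure D5:**
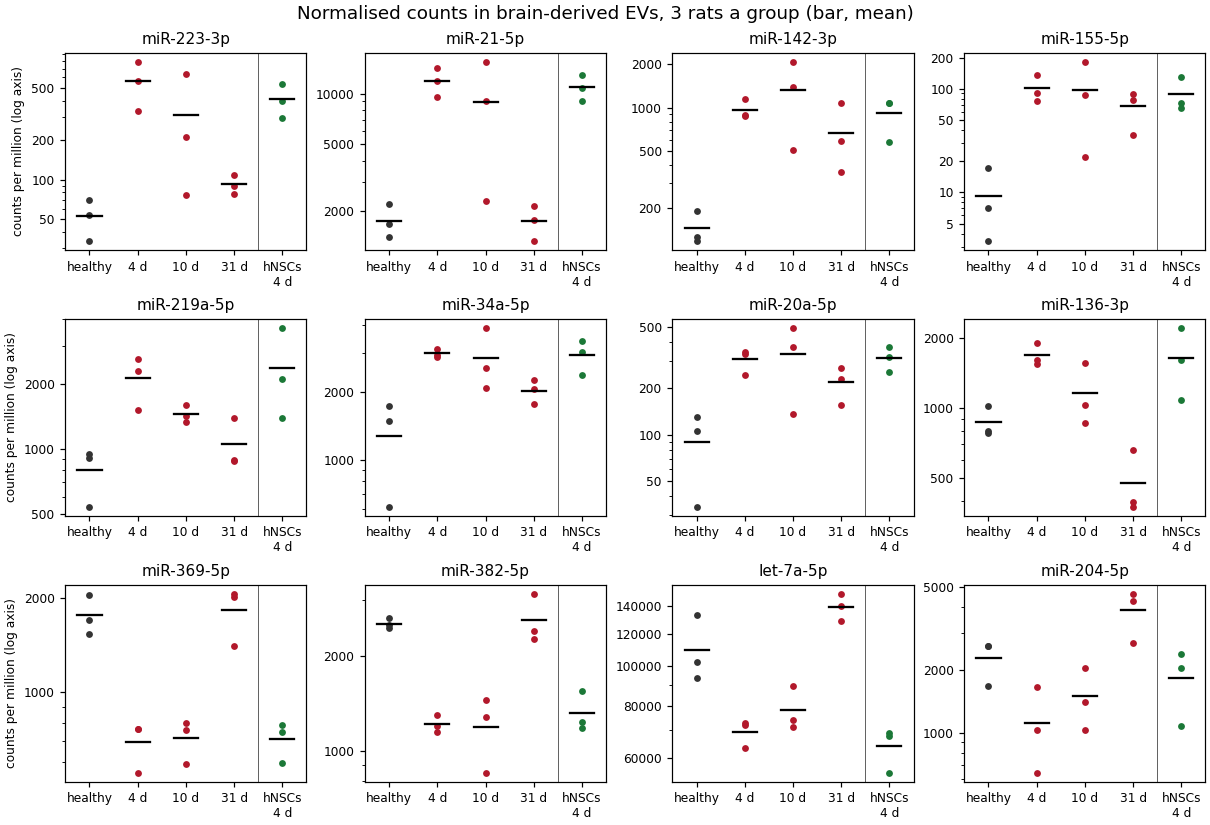
Normalised counts (CPM) on a log axis for 12 miRNAs in brain-derived EVs of healthy rats (black), control rats at 4, 10, and 31 days (red), and hNSCs rats at 4 days (green), 3 rats a group, with bars at the means. miR-21-5p and miR-223-3p are high at 4 days and lower at 31 days, when miR-21-5p lies among the healthy values and miR-223-3p just above them. miR-142-3p and miR-155-5p also remain above the healthy values, and miR-369-5p, miR-382-5p and let-7a-5p dip at 4 and 10 days.

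A second group of 3 stroke rats at 4 days had received human neural stem cells (hNSCs) instead of saline 1 day earlier. Since it was compared with the same 3 healthy libraries, its values are set beside those of the control group without a count of shared calls. Against healthy rats, 34 miRNAs were higher (9.71%) and 28 lower (8.00%), 62 in all (17.7%). miR-21-5p was at 10783, 9030 and 12907 CPM (log2 fold change from healthy 2.63 ± 0.49) and miR-223-3p at 294, 397 and 536 (2.91 ± 0.59). miR-219a-5p was at 3658, 1399 and 2107 (1.59 ± 0.30), and miR-369-5p at 746, 593 and 789 (−1.31 ± 0.20). miR-204-5p, at 2045, 2383 and 1076, had −0.32 ± 0.34 (adjusted p = 0.558).

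Plasma-derived EVs of the control and healthy groups were tested in a fit of their own. There, 1 of 309 miRNAs (0.324%) was called, and it was higher. Of the largest brain increases, miR-21-5p had a plasma log2 fold change of 0.46 ± 0.42 (adjusted p = 0.57) and miR-223-3p 0.53 ± 0.43 (adjusted p = 0.527). For let-7a-5p it was −0.47 ± 0.52, and for miR-34a-5p 0.31 ± 0.32. Without overlap and in the same direction as in brain, miR-136-3p was at 35.7, 22.3 and 23.8 CPM in control and 4.31, 3.58 and 3.66 in healthy plasma. That difference rests on low values in healthy plasma. Likewise, miR-361-5p, called lower in brain, was at 273, 306 and 277 against 505, 495 and 380. Its brain call held in 6 of 17 alternative settings. The share of all plasma miRNAs without overlap is not given here. Opposite directions without overlap, in miR-142-3p, miR-155-5p and miR-532-3p, are described below. The difference between brain and plasma was not tested.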

How the data were processed

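The authors made small RNA libraries with a UMI kit from EV RNA, kept reads of 18 to 30 nt, removed other small RNAs and repeats with Bowtie, and counted known (miRBase) and predicted miRNAs on build Rnor_6.0, with tool versions not given in the sources used here. The deposited counts are UMI counts without normalization, and in the deposited TPM values each count is divided by its library's total. Known miRNAs of the 21 brain libraries were fitted in 1 model of the 7 groups of 3 rats with edgeR 4.0.16 (TMM, filterByExpr, quasi-likelihood test), with Benjamini-Hochberg adjustment over all 350. The alternatives were DESeq2 1.42.0 and its size factors, library totals, limma 3.58.1 on log2(TPM + 1 or 0.1), other filters, only the groups compared, predicted miRNAs kept, a replicate block, each library left out, and 1 miRNA per shared count, added after the data were seen. miRNAs were named by rule: the 12 largest non-overlapping calls each way, the 10 most abundant, members of 22 cell type and family lists, strands that the study discusses, and strands sharing a seed with these. The remaining called miRNAs were named after their values were seen. Members and lists were chosen with earlier results of these data known. The test was checked on simulated counts. Replicates are separate rats. UMIs limit amplification bias, and depth limits strands of few UMIs.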

Additional observations from a re-analysis of the deposited data

Results flagged for a closer look

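In 3 of the miRNAs that rose in brain-derived EVs, every control rat lay above every healthy rat in brain and below every healthy rat in plasma at 4 days. These 3 were picked for this pattern among the called miRNAs that were also tested in plasma. How many would show it by chance was not tested. In brain, the groups did not overlap in 138 of all 350 tested (39.4%), and the share over all plasma miRNAs is not given here. None of the 309 plasma miRNAs was called lower, and the difference between the tissues was not tested. miR-142-3p had a log2 fold change of 2.72 in brain and −0.76 in plasma, where it was at 18366, 26180 and 24260 CPM in control and at 42781, 34315 and 39063 in healthy rats (plasma adjusted p = 0.455). miR-155-5p had 3.30 in brain and −1.13 in plasma, at 164, 189 and 220 against 374, 343 and 537 (plasma adjusted p = 0.265). miR-532-3p had 1.39 in brain and −0.90 in plasma, at 39.2, 58.9 and 68.8 against 100, 119 and 92.8 (plasma adjusted p = 0.213).

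Among the predicted miRNAs, which the comparison leaves out, 14 were called higher and 306 lower at 4 days of 1501 tested together with the known ones. The share of UMIs on predicted miRNAs was also smaller in the control libraries, and its part in this result was not tested.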

How the results depend on the processing

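Increases numbered 27 and decreases 24. Increases came to 80 and 79 by limma on log2(TPM + 1) and log2(TPM + 0.1), 59 with library totals, and 115 with predicted miRNAs kept (these included), and to between 11 and 34 with 1 library left out. Decreases came to 37 by DESeq2, 39 with its size factors, 6 and 6 by limma, 9 with totals, 11 with only the groups compared, 307 with predicted miRNAs kept, and between 5 and 27 with 1 library left out. Between 10 and 4 days, against 0 calls, there were 1 by DESeq2, 8 without a filter on low counts, 17 with predicted miRNAs kept, and 0 to 3 with 1 library left out. Between 31 and 4 days there were 249 with predicted miRNAs kept, against 101. The replicate block gave 36 increases and 25 decreases, and 50 of the 51 calls held. The replicate numbers name different rats, and same-numbered rats had correlations of −0.08, −0.17 and 0.10, so the block has no basis in the design. For the calls at 4 days, the sign was the same for every one still tested, except with predicted miRNAs kept, where 40 of 51 did.

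With predicted miRNAs kept, fold changes below 0 turned positive: let-7a-5p 0.28, let-7b-5p and let-7c-5p 0.44, let-7f-5p and let-7i-5p 0.33, miR-103-3p and miR-107-3p 0.33, miR-124-3p 0.41, miR-125a-5p 0.36, miR-125b-5p 0.64, miR-128-3p 0.39, miR-139-3p 0.12, miR-144-5p 0.81, miR-3099 0.084, miR-361-5p 0.36, miR-409a-5p 0.16, miR-434-3p 0.32, and miR-9a-5p 0.64, all below the median of 0.91. Uncalled miRNAs near 0 changed sign elsewhere. By limma with a pseudocount of 1 or 0.1, miR-125b-5p was 0.037 and 0.037, miR-9a-5p 0.027 and 0.027, and miR-144-5p 0.050 and 0.038. miR-144-5p was 0.11 with totals and between −0.52 and 0.26 with 1 library left out. miR-29a-3p was −0.027 by DESeq2, −0.027 with its factors, and −0.00125 with only the groups compared, and miR-29c-3p −0.016 in the first 2 of these. With 1 library left out, miR-29a-3p ranged from −0.14 to 0.27, miR-29c-3p from −0.13 to 0.28, and miR-24-3p from −0.0027 to 0.52. The cause was not tested.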
